A study of Mus musculus with 6 samples.

Results

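The mRNAs of 10 genes of branched-chain amino acid breakdown, out of 24537 genes in the deposited table, were compared between brown adipocytes treated with vehicle (CTL) and with 4-chlorobenzoic acid (4CBA). The genes were taken by their symbols and comprise both branched-chain aminotransferases (Bcat1, Bcat2), subunits of the branched-chain ketoacid dehydrogenase (Bckdha, Bckdhb, Dbt), its kinase (Bckdk), enzymes of the leucine branch (Ivd, Mccc1, Mccc2) and an enzyme of the valine branch (Hibch). All 10 passed the filter on low values, which kept genes with a value of 0.5 or more in at least 3 libraries. Values are RPKM, reads per unit of exon length and of sequencing depth. By GENCODE vM21 all 10 are protein-coding and lie on chromosomes 1 (Hibch), 2 (Ivd), 3 (Dbt and Mccc1), 6 (Bcat1), 7 (Bcat2, Bckdha and Bckdk), 9 (Bckdhb) and 13 (Mccc2).

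Leucine, isoleucine and valine are broken down in a shared route that splits after its irreversible step. BCAT1 in the cytosol and BCAT2 in mitochondria move the amino group to form branched-chain ketoacids, and the mitochondrial dehydrogenase complex commits these to oxidation. Its decarboxylase is built of BCKDHA and BCKDHB, DBT is its core transacylase and DLD the dehydrogenase it shares with other complexes, while BCKDK phosphorylates and switches off BCKDHA and PPM1K reverses this. Separate enzymes then carry each product to acetyl-CoA, acetoacetate or propionyl-CoA, and the acyl-CoA dehydrogenases among them pass electrons through ETF and ETFDH to coenzyme Q (CoQ). Thermogenic brown fat is known for taking up and oxidizing these amino acids in mitochondria.

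The cells were immortalized murine brown preadipocytes differentiated in culture for 6 days. Libraries 1 to 3 of the CTL group came from cells given vehicle and those of the 4CBA group from cells given 4 mM 4CBA, an inhibitor of the CoQ synthesis enzyme COQ2, from day 4. Medium refresh is given as 24 h for both groups. The sample labels give a treatment of 48 h and the methods text a shorter one, which was not settled here. The methods also state that independent replicates were pooled to make RNA, while a figure legend of the paper counts 3 independent experiments per treatment. Which of these holds was not resolved. The p-values thus measure the spread between these 3 libraries per group, which may be technical, and a single immortalized line stands for the cell type.

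Depth was read from the spacing of low RPKM values and was about 9420000 to 12200000 reads per CTL library and 10800000 to 11500000 per 4CBA library. Adipocyte genes were present and moved with the treatment. All 11 tested of 12 listed markers were lower in 4CBA, against 30.0% of all tested genes, with a median log2 fold change of -2.25. The list mixes genes typical of brown fat, such as Ucp1 and Cidea, with general adipocyte genes such as Adipoq, Fabp4 and Lep. The summed RPKM of the 12 was 10600 to 11060 in CTL and 4626 to 5819 in 4CBA libraries, most of it from Fabp4, which was 1.78-fold lower, while Ucp1 was 16.2-fold and Cox7a1 8.62-fold lower. Of 6 preadipocyte and fibroblast markers 5 were lower as well, against the same 30.0% (summed RPKM 87.8 to 98.7 in CTL and 38.4 to 41.5 in 4CBA). The macrophage genes Adgre1, Ptprc and Itgam, the endothelial gene Cdh5 and the muscle genes Myod1, Myog and Myh1 were at 0 in all 6 libraries. Summed RPKM was 0.553 to 0.735 in CTL and 0.222 to 0.792 in 4CBA for the 5 macrophage markers, 0.06 to 0.128 and 0.203 to 0.418 for the 4 endothelial ones, and 0.215 to 0.331 and 4.00 to 5.36 for the 5 muscle ones, the last nearly all from Acta1. In these bulk libraries, fewer differentiated cells and less of an mRNA per cell cannot be told apart, and the part of the fall of the adipocyte markers in the results below was not tested.

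Of the 10 genes, 5 were lower in 4CBA (Bckdhb, Ivd, Mccc1, Mccc2 and Hibch), 2 were higher (Bcat1 and Dbt) and 3 were not called (Bcat2, Bckdha and Bckdk). Calls are adjusted p-values under 0.05 from limma on log2(RPKM + 1), adjusted by the Benjamini-Hochberg method over 12659 genes. Over all tested genes 68.4% were called, 38.4% as higher and 30.0% as lower, so that 7 called genes among 10 are close to the background. The share called as lower, 5 of 10, was above that background and the share called as higher, 2 of 10, below it, which is a description with no test. Groups did not overlap for 5 genes that were lower in 4CBA and 3 that were higher, against 31.8% and 40.9% of all tested genes. The median log2 fold change was -0.49 over the 10 genes and 0.06 over all tested genes. A log2 fold change of at most -1 on the scale of log2(RPKM + 1) was found for 2 of the 10 genes, Ivd and Mccc2, and for 6.00% of all tested genes, and a rise of this size for Bcat1 and for 5.47%.

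**Figure D1:**
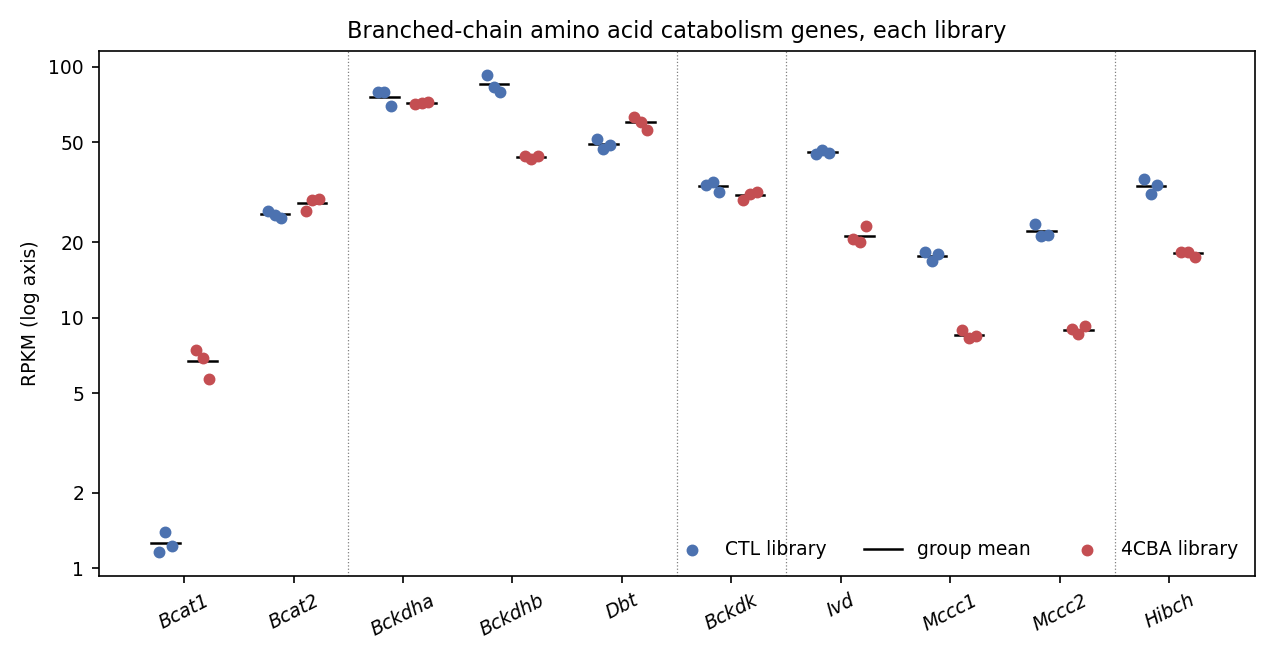
RPKM (log axis) of the 10 genes in each CTL library (blue) and each 4CBA library (red), with group means as black lines and dotted lines between the steps of the pathway. Bcat1 lies higher in every 4CBA library, Bckdha and Bckdk overlap, and Bckdhb, Ivd, Mccc1, Mccc2 and Hibch lie lower in every 4CBA library.

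Bcat1, the cytosolic aminotransferase, had the largest change of the 10 genes. Its RPKM was 1.159, 1.403 and 1.225 in CTL libraries 1, 2 and 3 and 7.466, 6.933 and 5.683 in 4CBA libraries 1, 2 and 3. All 4CBA libraries were above all CTL libraries. The mean rose from 1.26 ± 0.126 to 6.69 ± 0.915 (SD, n = 3 each), a ratio of 5.30, and the log2 fold change was 1.76 (SE 0.105, 95% interval 1.53 to 1.99, limma adjusted p = 3.39e-08). That scale understates the change of low genes, and with a pseudocount of 0.1 in place of 1 the log2 fold change was 2.31. The low level of Bcat1 in CTL stands for about 29 to 43 reads per library, and the level in 4CBA for about 157 to 219.

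Bcat2, the mitochondrial aminotransferase and the more abundant of the pair, differed little. RPKM was 26.645, 25.758 and 25.035 in the CTL libraries and 26.674, 29.426 and 29.671 in the 4CBA libraries. The groups did not overlap, but the highest CTL and the lowest 4CBA library nearly coincided. The log2 fold change of 0.14 (95% interval 0.01 to 0.27) did not pass the threshold after adjustment over all genes (limma adjusted p = 0.053), and it did so without 4CBA replicate 1 (log2 fold change 0.19, adjusted p = 0.0171) and when the filter was raised to an RPKM of 5 (adjusted p = 0.0465). After scaling to the same median it was 0.03 (adjusted p = 0.702) and from the deposited log2 values 0.07 (adjusted p = 0.332). As a share of the summed RPKM of both aminotransferases, Bcat1 made up 4.17%, 5.17% and 4.67% in the CTL libraries and 21.9%, 19.1% and 16.1% in the 4CBA libraries. The share of Bcat1 was thus 14.3 percentage points higher in 4CBA (exact permutation test, two-sided, p = 0.1, the smallest that 3 against 3 libraries allow, and 0.129 adjusted over the 9 ratios computed here).

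The window around the upstream start of Bcat1 (RefSeq, GRCm38.p6, chr6:145076108-145076407, minus strand, 250 bases before to 50 after the start, 5′ to 3′) is shown because this gene rose most. Capitals would mark the letters TGATG on either strand, the core of the composite element bound by C/EBP and ATF4 dimers, and this window holds none.
Bcat1: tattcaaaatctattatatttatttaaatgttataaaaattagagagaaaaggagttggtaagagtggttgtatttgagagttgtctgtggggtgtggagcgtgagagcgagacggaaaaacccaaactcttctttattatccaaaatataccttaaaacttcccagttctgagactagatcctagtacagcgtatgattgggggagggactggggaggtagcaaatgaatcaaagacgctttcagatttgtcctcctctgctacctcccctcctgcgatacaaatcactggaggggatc
The second window of Bcat1, at an internal start, holds TGATG beginning 85 bases before that start.

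The subunits of the dehydrogenase complex moved apart. Bckdhb, the β subunit of the decarboxylase, fell, Bckdha, the α subunit, did not pass the threshold, and Dbt, the transacylase core, rose. Bckdhb RPKM was 93.219, 82.892 and 79.841 in CTL and 44.127, 43.148 and 44.262 in 4CBA libraries. Every 4CBA library lay below every CTL library, with a mean of 85.3 ± 7.01 in CTL and 43.9 ± 0.608 in 4CBA (SD, n = 3 each). Bckdhb was 1.95-fold lower (log2 fold change -0.94, SE 0.0616, limma adjusted p = 7.50e-08). The counting kept 1 RefSeq isoform per gene, and the deposited log2 table holds another isoform of Bckdhb than the RPKM table, with a log2 fold change of -0.98 there.

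Bckdha RPKM was 79.169, 79.152 and 69.585 in CTL and 71.432, 72.053 and 72.247 in 4CBA libraries. The 3 values of 4CBA lay within the range of CTL, where library 3 was the lowest. The log2 fold change was -0.08 (95% interval -0.21 to 0.05, limma adjusted p = 0.273). It was called as lower without CTL replicate 3 (-0.14, adjusted p = 0.0498), after scaling the libraries to the same median (-0.19, adjusted p = 0.014) and from the deposited log2 values (-0.14, adjusted p = 0.0297). Within each library, the ratio of Bckdhb to Bckdha RPKM was 1.18, 1.05 and 1.15 in CTL and 0.618, 0.599 and 0.613 in 4CBA. Bckdhb thus had the higher RPKM of the decarboxylase genes in every CTL library and the lower in every 4CBA library. RPKM rests on the isoform length used for each gene, so the order of these genes within a library depends on it. The log2 ratio was 0.88 lower in 4CBA, a 1.84-fold change of the ratio (exact permutation p = 0.1, adjusted 0.129), and this ratio was added after the values were seen.

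Dbt RPKM was 51.674, 47.234 and 48.944 in CTL and 63.430, 60.527 and 56.283 in 4CBA libraries. All 4CBA libraries were above all CTL libraries. The mean rose 1.22-fold, from 49.3 ± 2.24 to 60.1 ± 3.59 (SD, n = 3 each), with a log2 fold change of 0.28 (SE 0.0596, limma adjusted p = 0.0013). This was 0.16 after scaling to the same median (limma adjusted p = 0.023) and 0.21 from the deposited log2 values (adjusted p = 6.48e-04). Set against Bckdha, the ratio of Dbt was 0.653, 0.597 and 0.703 in CTL and 0.888, 0.840 and 0.779 in 4CBA, a log2 difference of 0.36 (exact permutation p = 0.1, adjusted 0.129). DLD, the last subunit, is encoded by a gene outside the 10 that fell with Bckdhb, from a mean RPKM of 226.3 ± 6.88 to 123.0 ± 9.51 (SD, n = 3 each, log2 fold change -0.88).

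The start of Bckdha is shown as that of the subunit that was not called (RefSeq, GRCm38.p6, chr7:25658712-25659011, minus strand, 5′ to 3′). Capitals mark TGATG, here at base 32 counted from the start as base 1.
Bckdha: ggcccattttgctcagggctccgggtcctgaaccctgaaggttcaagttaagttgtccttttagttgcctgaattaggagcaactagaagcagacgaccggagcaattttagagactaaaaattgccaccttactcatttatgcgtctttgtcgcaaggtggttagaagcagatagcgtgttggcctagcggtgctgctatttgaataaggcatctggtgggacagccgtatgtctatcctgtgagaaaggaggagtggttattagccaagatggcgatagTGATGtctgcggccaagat
No TGATG was found in either window of Bckdhb.

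Bckdk, the kinase that inactivates the complex, did not pass the threshold. Its RPKM was 33.796, 34.785 and 31.695 in CTL and 29.372, 31.062 and 31.761 in 4CBA libraries. The highest 4CBA library overlapped the lowest CTL library, and the log2 fold change was -0.12 (95% interval -0.24 to 0.01, limma adjusted p = 0.0909). It was called as lower after scaling to the same median (-0.23, adjusted p = 0.00445) and from the deposited log2 values (-0.18, adjusted p = 0.00722). Against its substrate Bckdha, the ratio of kinase RPKM was 0.427, 0.440 and 0.456 in CTL and 0.411, 0.431 and 0.440 in 4CBA, which overlapped (log2 difference -0.04, exact permutation p = 0.5, adjusted 0.563).

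The opposing phosphatase Ppm1k fell 1.78-fold, from a mean RPKM of 4.96 ± 0.266 to 2.79 ± 0.328 (SD, n = 3 each, log2 fold change -0.66, limma adjusted p = 5.37e-05). The ratio of Bckdk to Ppm1k RPKM was accordingly 6.59, 6.82 and 6.81 in CTL and 10.4, 12.7 and 10.2 in 4CBA libraries. All 3 ratios in 4CBA exceeded those in CTL, by 1.64-fold (exact permutation p = 0.1, adjusted 0.129), a comparison of mRNA and not of enzyme activity that was added after the values were seen.

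**Figure D2:**
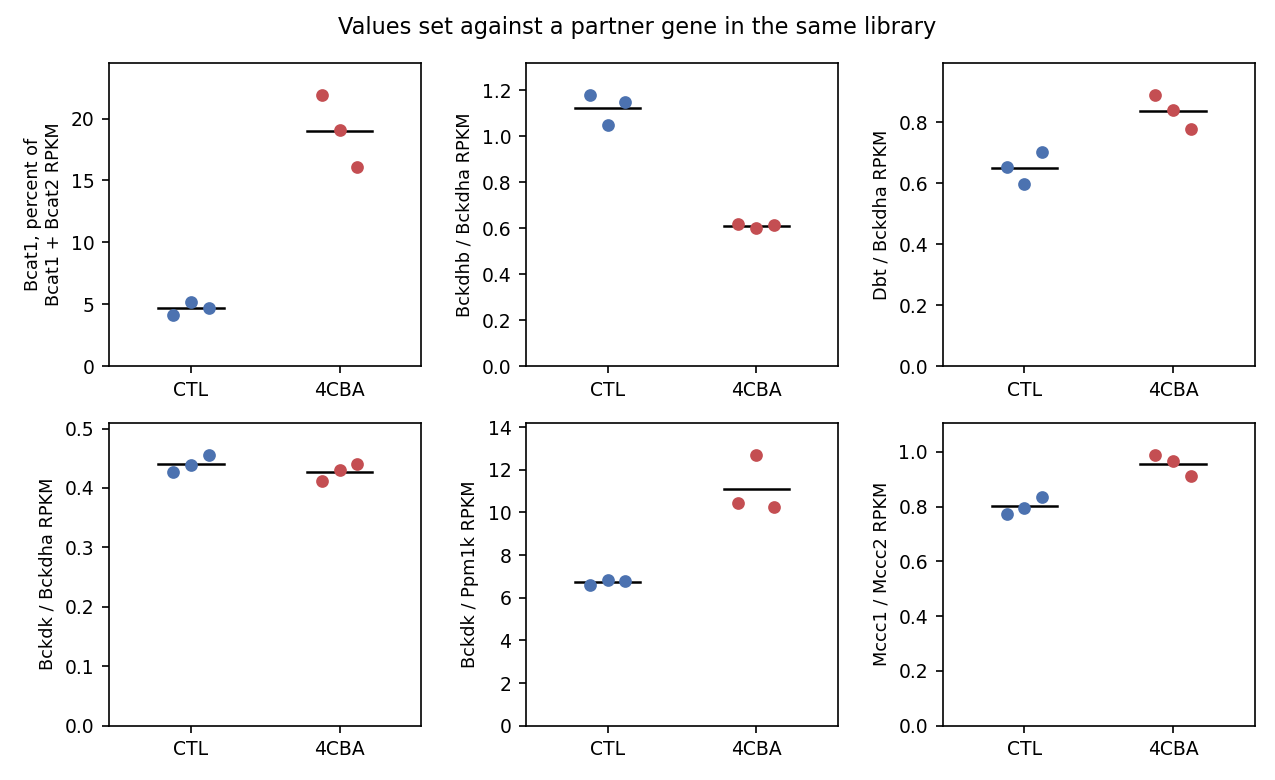
Each point is 1 library (CTL blue, 4CBA red) and each line a group mean of an RPKM ratio within libraries, or of the percent of aminotransferase RPKM that is Bcat1, on axes that start at 0. The Bckdhb to Bckdha ratio is above 1 in all 3 CTL libraries and at 0.599 to 0.618 in 4CBA, while the Bckdk to Bckdha ratio overlaps between groups.

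All 3 leucine-branch genes among the 10 fell, against 30.0% of all tested genes called as lower. Ivd encodes isovaleryl-CoA dehydrogenase, the first leucine-specific step and a donor of electrons to ETF. Its RPKM was 44.863, 46.709 and 45.382 in CTL and 20.590, 19.987 and 23.180 in 4CBA libraries. The groups were far apart, and the mean fell 2.15-fold from 45.7 ± 0.952 to 21.3 ± 1.70 (SD, n = 3 each, log2 fold change -1.07, SE 0.0626, limma adjusted p = 2.85e-08).

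Mccc1 and Mccc2 encode the α and β subunits of methylcrotonyl-CoA carboxylase, the biotin enzyme that follows. Mccc1 RPKM was 18.335, 16.770 and 17.924 in CTL and 8.933, 8.309 and 8.424 in 4CBA libraries. Mccc2 RPKM was 23.670, 21.096 and 21.454 in CTL and 9.035, 8.591 and 9.226 in 4CBA libraries. Neither gene overlapped between groups, with a fall of 2.07-fold for Mccc1 (log2 fold change -0.97, SE 0.0634, limma adjusted p = 7.64e-08) and of 2.47-fold for Mccc2 (log2 fold change -1.21, SE 0.0648, limma adjusted p = 1.31e-08). Unlike the decarboxylase subunits, this pair fell together, from 17.7 ± 0.811 to 8.56 ± 0.332 for Mccc1 and from 22.1 ± 1.39 to 8.95 ± 0.326 for Mccc2 (SD, n = 3 each). The ratio of Mccc1 to Mccc2 was 0.775, 0.795 and 0.836 in CTL and 0.989, 0.967 and 0.913 in 4CBA, a log2 difference of 0.25 (exact permutation p = 0.1, adjusted 0.129).

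The starts of both carboxylase genes are shown because the subunits work in 1 enzyme and their mRNAs fell together (RefSeq, GRCm38.p6, 5′ to 3′, Mccc1 at chr3:36000629-36000928 and Mccc2 at chr13:100015590-100015889, both on the minus strand). Capitals mark TGATG, which begins 228 bases before the start of Mccc1 and at base 18 of Mccc2, counted from the start as base 1.
Mccc1: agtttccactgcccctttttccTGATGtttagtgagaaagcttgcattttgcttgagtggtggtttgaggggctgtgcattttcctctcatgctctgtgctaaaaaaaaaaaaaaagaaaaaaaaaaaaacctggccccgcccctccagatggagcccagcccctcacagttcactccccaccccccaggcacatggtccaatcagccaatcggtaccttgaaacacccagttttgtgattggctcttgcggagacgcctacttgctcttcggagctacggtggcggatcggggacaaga
Mccc2: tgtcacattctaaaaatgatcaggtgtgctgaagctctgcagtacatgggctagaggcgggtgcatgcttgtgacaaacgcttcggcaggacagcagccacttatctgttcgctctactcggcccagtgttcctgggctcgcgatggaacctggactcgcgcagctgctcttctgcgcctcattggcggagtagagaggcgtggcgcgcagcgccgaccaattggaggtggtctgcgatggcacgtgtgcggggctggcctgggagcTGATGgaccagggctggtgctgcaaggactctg
The window of Mccc1 holds 8 CpG sites and that of Mccc2 holds 19.

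Hibch encodes the hydrolase that frees hydroxyisobutyrate from CoA in valine breakdown. Its RPKM was 35.675, 31.231 and 33.878 in CTL and 18.361, 18.339 and 17.480 in 4CBA libraries. The 4CBA libraries were close together and well below CTL, and the mean fell 1.86-fold from 33.6 ± 2.24 to 18.1 ± 0.502 (SD, n = 3 each, log2 fold change -0.86, SE 0.0616, limma adjusted p = 1.70e-07). Hibadh, the dehydrogenase that acts on the product, had the same log2 fold change to 2 decimals, -0.86, with a mean RPKM of 72.7 ± 3.48 in CTL and 39.6 ± 0.549 in 4CBA. The log2 ratio of Hibch to Hibadh differed by -0.02 between groups, with overlap (exact permutation p = 0.7).

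With these changes the order of the mRNA levels per length shifted. In CTL, mean RPKM ran from Bckdhb (85.3) through Bckdha (76.0), Dbt (49.3), Ivd (45.7), Hibch (33.6), Bckdk (33.4), Bcat2 (25.8), Mccc2 (22.1) and Mccc1 (17.7) to Bcat1 (1.26). Of these neighbours, Hibch and Bckdk overlapped and the others did not. In 4CBA the order was Bckdha (71.9), Dbt (60.1), Bckdhb (43.9), Bckdk (30.7), Bcat2 (28.6), Ivd (21.3), Hibch (18.1), Mccc2 (8.95), Mccc1 (8.56) and Bcat1 (6.69). Bckdk overlapped Bcat2, and Mccc2 overlapped Mccc1. Kinase and mitochondrial aminotransferase thus ranked below Ivd in CTL and above it in 4CBA.

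A further 33 genes of uptake, shared subunits and later steps were examined, of which 31 passed the filter. Slc7a8 did not, with a mean RPKM of 0.348 in CTL and 0.474 in 4CBA, nor did Abat, with 0.592 and 0.371. Of the 31, 23 were lower (74.2%, against 30.0% of all tested genes), 6 were higher (19.4%, against 38.4%) and 2 were not called. A log2 fold change of at most -1 on the same scale was found for 12 of them, against 6.00% of all tested genes. The median log2 fold change was -0.66. These genes were listed with results of these data known. Several, such as Etfa, Etfb, Etfdh, Echs1, Hadha, Hadhb and Acat1, also serve fatty acid oxidation. Examples of mitochondrial genes outside these lists differed. On the log2 scale, Hadh (-1.34), Eci1 (-1.95) and Uqcrc1 (-1.55) were lower, Lrpprc (-0.07) and Timm10 (-0.07) not called and Clpb (0.46) higher. Whether the share of lower genes is particular to this pathway was not tested.

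Among carriers, 3 of 5 tested genes were higher and 1 was lower, against 38.4% and 30.0% of all tested genes. Slc7a5 and Slc3a2 encode the light and heavy chains of the large neutral amino acid exchanger that imports leucine. Slc7a5 RPKM was 29.9, 26.5 and 28.8 in CTL and 106.5, 108.2 and 114.6 in 4CBA libraries (3.86-fold higher, log2 fold change 1.91, limma adjusted p = 1.38e-10). Slc3a2 RPKM was 60.0, 54.2 and 54.7 in CTL and 307.6, 298.0 and 296.9 in 4CBA libraries (5.34-fold higher, log2 fold change 2.40, adjusted p = 1.50e-11). Of the other carriers with smaller mRNA levels, Slc43a2 rose (mean RPKM 1.96 to 3.04) and Slc43a1 fell (1.76 to 0.859). Slc25a44, the mitochondrial carrier for these amino acids, was 37.5 ± 0.813 in CTL and 35.9 ± 1.83 in 4CBA (SD, n = 3 each, log2 fold change -0.06, 95% interval -0.18 to 0.06), and was called as lower after scaling to the same median (-0.18, limma adjusted p = 0.0118) and from the deposited log2 values (-0.13, adjusted p = 0.0369).

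All 5 genes of the neighbouring acyl-CoA dehydrogenases and of electron transfer to CoQ were lower, against 30.0% of all tested genes. Etfb, a subunit of the flavoprotein that accepts electrons from IVD, fell 4.63-fold from a mean RPKM of 409.7 ± 17.6 to 88.5 ± 0.756 (SD, n = 3 each). Its partner Etfa was 359.7 and 152.8, and Etfdh, which hands the electrons to CoQ, was 164.8 and 72.8 in CTL and 4CBA. The dehydrogenases of the valine and isoleucine branches fell less than Ivd. Acad8 (valine) had a log2 fold change of -0.39 and Acadsb (isoleucine) of -0.53, beside -1.07 for Ivd. The log2 ratio of Ivd to Acad8 was lower in 4CBA by 0.69 and that of Ivd to Acadsb by 0.55, with no overlap between groups (exact permutation p = 0.1 for each, adjusted 0.129, both added after the values were seen).

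Among the genes grouped as later leucine steps, Auh (methylglutaconyl-CoA hydratase), Oxct1 (ketone body use) and Acat1 (acetoacetyl-CoA thiolase, which also acts in isoleucine breakdown) were lower. Auh fell from a mean RPKM of 33.6 to 21.1 (log2 fold change -0.64) and Oxct1 3.00-fold from 242.6 to 81.0. Acat1 fell most of these, 5.55-fold from 192.5 ± 8.53 to 34.7 ± 1.60 (SD, n = 3 each, log2 fold change -2.44, limma adjusted p = 1.57e-11).

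All 6 tested genes of the later valine and isoleucine steps were lower, against 30.0% of all tested genes. Their median log2 fold change was -1.12. Echs1, the hydratase that precedes HIBCH, fell 3.96-fold from 172.1 ± 8.70 to 43.5 ± 0.925 RPKM (SD, n = 3 each). Aldh6a1, which makes propionyl-CoA from the valine semialdehyde, fell from 55.6 to 28.0, and the smallest fall of the 6 on the log2 scale was that of Hsd17b10 (-0.63). From propionyl-CoA to succinyl-CoA, 5 of 7 genes were lower, against the same 30.0%. On the log2 scale both carboxylase subunits Pcca (-1.36) and Pccb (-1.08) and the epimerase Mcee (-1.67) fell, and the mutase Mut fell 2.03-fold, from a mean RPKM of 63.6 to 31.3. The cobalamin-handling genes differed, with Mmaa lower (-0.47), Mmab not called (0.10, 95% interval -0.05 to 0.26) and Mmadhc higher by 1.53-fold (log2 fold change 0.61, limma adjusted p = 1.27e-06).

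Among genes that serve the biotin of carboxylases, Hlcs, the ligase that attaches it, was lower (mean RPKM 2.74 to 1.90) and Btd, which recycles it, was higher (14.8 to 20.4). Klf15, a transcription factor known to promote amino acid breakdown in mouse liver and muscle, was higher in 4CBA. Its RPKM was 13.4, 15.2 and 13.5 in CTL and 18.2, 21.9 and 21.7 in 4CBA libraries, without overlap (1.47-fold, log2 fold change 0.52, limma adjusted p = 1.16e-04).

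**Figure D3:**
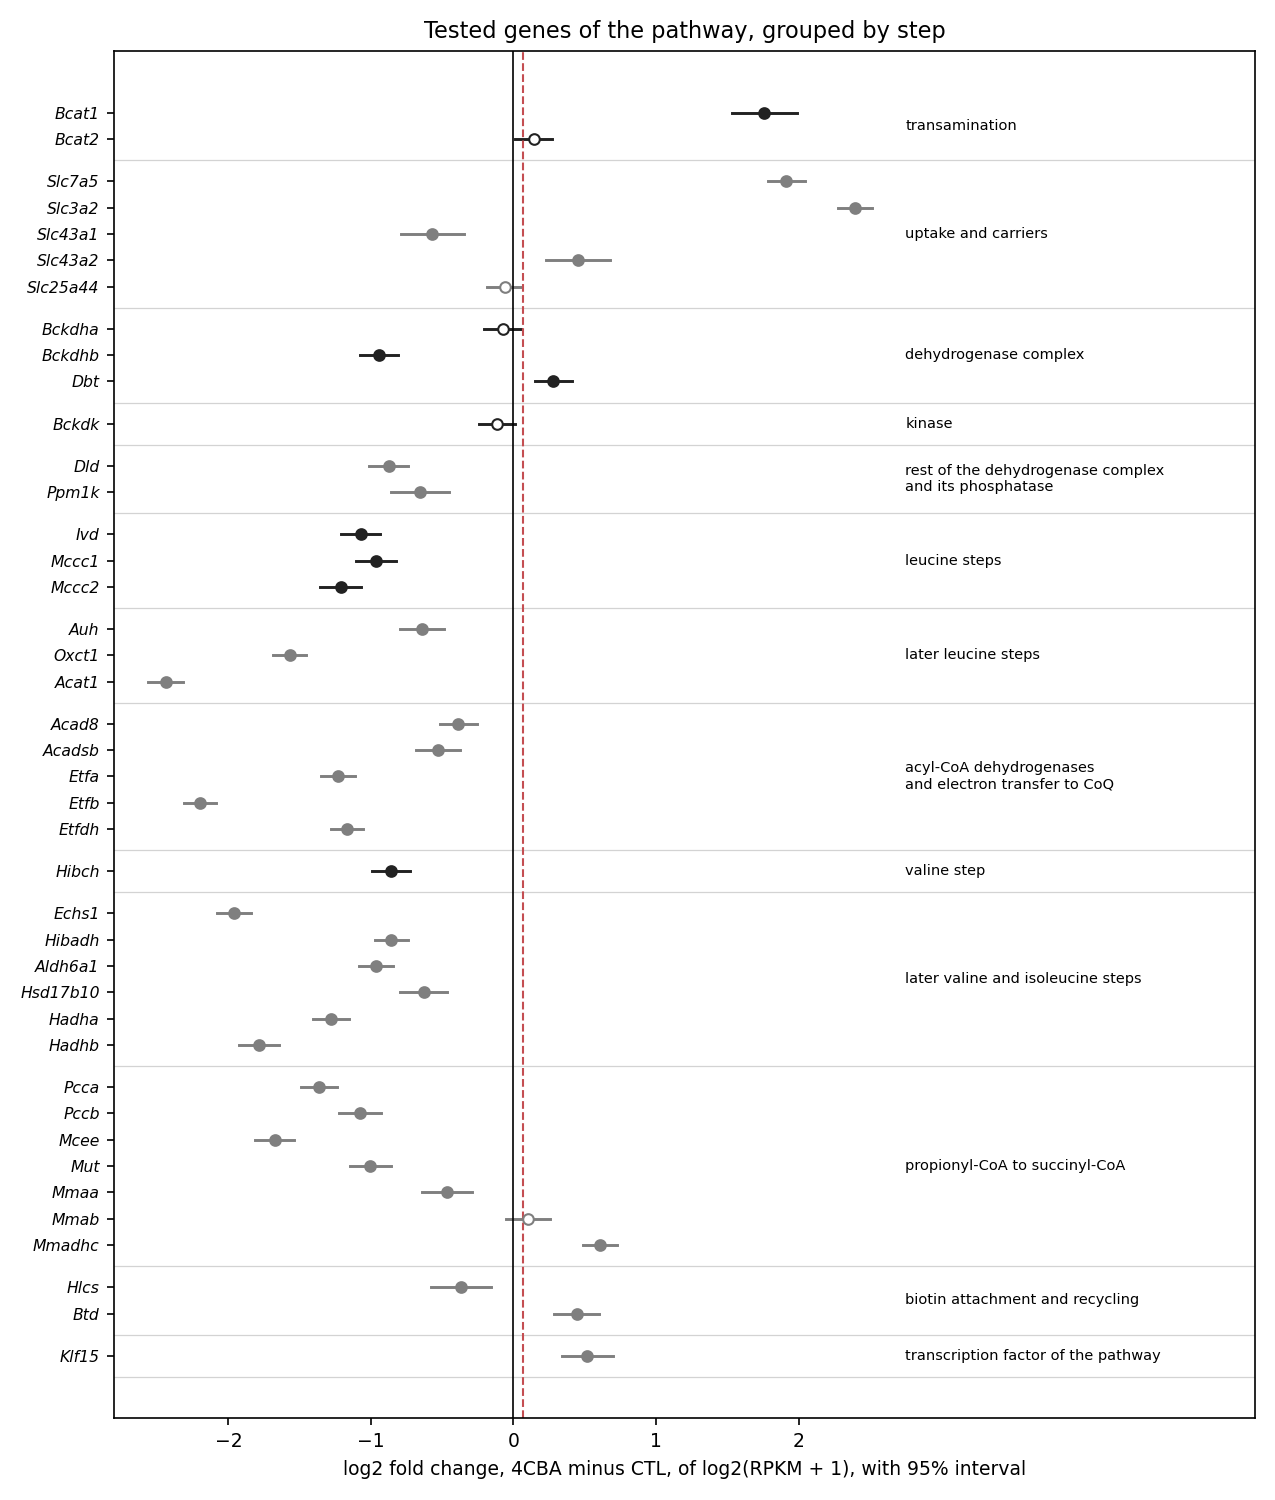
Log2 fold change (4CBA minus CTL, of log2(RPKM + 1)) with 95% interval of the 10 genes (black) and the 31 other tested genes of the pathway (grey), by step, where filled points passed the threshold and the dashed red line marks the median of all tested genes, 0.06. Slc3a2, Slc7a5 and Bcat1 lie farthest to the right, the genes after the dehydrogenase mostly to the left, and Mmab, Bcat2, Bckdha, Bckdk and Slc25a44 are open.

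The windows around starts were searched for motifs on both strands. RefSeq windows matched 9 of the 10 genes, all but Dbt, in 12 windows. The composite element TGATGNAAT was in 0 of these 12 and in 0.965% of all 32851 windows, and the cAMP response element TGACGTCA was in 0 of 12 and in 1.79% of all. The core TGATG, which the composite element contains, was in 5 of 12 windows (of Hibch, Mccc1, Bckdha, Mccc2 and the internal start of Bcat1) and in 39.3% of all. Of 33 windows of 27 other pathway genes, the composite element was in 1, that of Echs1, as TGATGCAAT 164 bases before the start. The windows of the 10 genes had a median GC content of 53.5% (37.3% to 66.3%), where the median of all windows was 52.7%.

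Across 13 alternative settings, the 7 called genes were called in the same direction in each, as were the 6 higher and 23 lower genes among the others in every setting that tested them. The log2 fold change ranged from 1.68 to 2.31 for Bcat1, from 0.16 to 0.33 for Dbt, from -1.06 to -0.88 for Bckdhb, from -1.32 to -1.16 for Mccc2 and from -0.97 to -0.82 for Hibch.

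**Figure D4:**
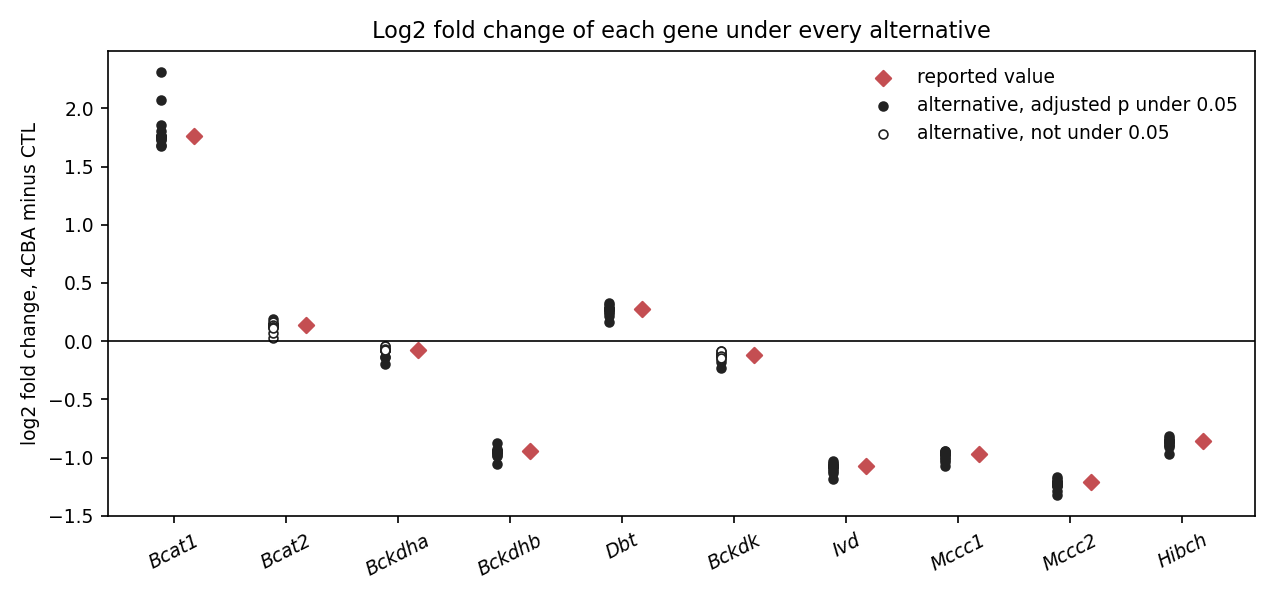
Log2 fold change (4CBA minus CTL) of each of the 10 genes as reported (red diamonds) and under each of 13 alternatives (circles, filled where the adjusted p is under 0.05). Bcat2, Bckdha and Bckdk have both open and filled circles, and the other 7 genes have filled circles throughout.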

How the data were processed

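The authors aligned the reads of 6 libraries to mm10 with STAR, used HOMER to count exonic reads on 1 RefSeq isoform per gene, and deposited the RPKM values of 24537 genes. Its header lists 24 libraries, and 6 of them are columns. A second deposited table holds log2 values of the same libraries, whose transform is not stated, and the log2 fold changes, p-values and adjusted p-values of the authors' DESeq2 comparison, which were not used. The versions of STAR, HOMER and DESeq2 and the use of strand in counting (the kit was stranded) are not given in the sources used, so that overlapping antisense genes cannot be separated.

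RPKM values were tested here with limma 3.58.1 (R 4.3.3, trend and robust estimation) on log2(RPKM + 1), for the 12659 genes that reached an RPKM of 0.5 in 3 or more libraries. The Benjamini-Hochberg method was applied over these genes, and an adjusted p under 0.05 was called. The procedure was tested on simulated data in which far fewer genes changed than were called here. Folds are ratios of group means of RPKM. Ratios within libraries were compared by exact permutation tests, two-sided, of which 2 were planned and 7 added after the values were seen. Low RPKM values gave the depth, with 74.5% to 76.4% of them within 0.1 of a whole read. The values compared were RPKM and not counts, so a count test was not run. Intervals are 95% intervals of the model.

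The members and lists were chosen with earlier results of these data known. The named genes were all 10 members and any of 33 other pathway genes, counted by step. A few mitochondrial genes outside these lists were named as examples with their values known. A further gene set out for that list is not reported here and is left out of its counts. Alternatives were a pseudocount of 0.1, no filter, a filter at an RPKM of 5, scaling to the same median, no robust estimation, the deposited log2 values, a block for the replicate number, and leaving out each library in turn. Start windows are from RefSeq (GRCm38.p6). Tables were handled with Python 3.11.15, pandas 2.3.3 and scipy 1.17.1.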

Additional observations from a re-analysis of the deposited data

How the results depend on the processing

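No call among the 10 genes was lost under the 13 alternatives, and the counts changed only by gains. Members called as lower were 5, and 7 after scaling to the same median and from the deposited log2 values (Bckdha and Bckdk added) and 6 without CTL replicate 3 (Bckdha). Members called as higher were 2, and 3 with the RPKM filter at 5 and without 4CBA replicate 1 (Bcat2). Of all called genes, 56.1% were higher, 45.7% after scaling to the same median and 50.5% from the deposited log2 values. Scaling turned the sign of Mmab, not called, from 0.10 to -0.0092, and without 4CBA replicate 2 Mmab was called as higher (0.17, limma adjusted p = 0.0421), which made 7 other pathway genes higher in place of 6. When single libraries were left out, the difference between groups in the log2 ratio of Hibch to Hibadh ranged from -0.0464 to 0.0035. No ratio could pass a threshold of 0.05, since 3 against 3 libraries allow no exact p under 0.1.

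Samples with the same replicate number did not deviate together (r = -0.067, -0.033 and -0.027 across genes, which are not independent replicates). No shared effect of the numbers was seen, but this cannot show how the cultures were set up, and the labels do not state pairs. The fit with the replicate number as a block called 5 members as lower and 2 as higher, as without it, and 3734 lower and 4765 higher genes among all tested in place of 3804 and 4860.

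Depth limits Bcat1 in CTL, at 29 to 43 reads, and Slc43a1 in 4CBA, at 21 to 26. The deposited RPKM values come without read counts, so the counting error of these low genes was not modelled from counts. The scale of log2(RPKM + 1) compresses low genes. Protein, enzyme activity and flux were not measured in these libraries, and the treatment time stated differs between sources.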
